A study of Mus musculus with 16 samples.

Results

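Offset overlapping sites of PPARγ and C/EBPα are stretches of fat cell chromatin where a peak of each factor touches the other but the peak centres lie apart. They were taken as the PPARγ peaks that shared at least 1 bp with a C/EBPα peak and whose nearest C/EBPα peak centre, the midpoint of its start and end, was 100 bp or more away. The rule was met by 1906 of 30588 PPARγ peaks, or 6.23% (exact 95% Clopper-Pearson interval 5.96 to 6.51). They made up 17.3% of the 11034 PPARγ peaks that overlapped a C/EBPα peak (16.6 to 18.0). Each of the 1906 had 1 overlapping C/EBPα peak, and these were 1906 different C/EBPα peaks of 30519 listed.

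The values come from ChIP-seq, a method that sequences the DNA fragments pulled down with an antibody, in 3T3-L1 adipocytes at day 7 of differentiation. 3T3-L1 is a single mouse preadipocyte line, differentiated in the dish, and all cells had been induced with dexamethasone, 3-isobutyl-1-methylxanthine, insulin and fetal calf serum. The cells of one treatment had received 1 µM rosiglitazone in 0.1% DMSO for 1 h, and those of the other 0.1% DMSO alone for 1 h. Antibodies against PPARγ, C/EBPα, MED1 and CBP gave 1 column of values each per treatment, although the labels list 2 PPARγ samples per treatment. The series' RNA polymerase II and input samples were not analysed here.

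PPARγ is a nuclear receptor that binds DNA as a heterodimer with a retinoid X receptor and is needed to form fat cells. C/EBPα is a leucine zipper factor that binds DNA as a dimer, and both factors occupy many of the same fat cell enhancers. Rosiglitazone is a PPARγ agonist. Ligand binding changes the surface to which coactivators dock. MED1 is the Mediator subunit that contacts nuclear receptors. CBP acetylates histones and is recruited by many factors.

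Each site was read in 2 windows. The PPARγ peak spans 187 bp and the C/EBPα peak 231 bp, counting both end positions. Values are in the authors' normalised units, here called deposited units, and were whole multiples of 1 sequenced tag. For PPARγ a tag was worth 0.831 units in rosiglitazone and 0.879 in DMSO, and for C/EBPα 1.27 and 2.21. For MED1 it was worth 7.65 and 3.49 units, and for CBP 6.06 and 2.21. The MED1 and CBP libraries were therefore 2.19 and 2.74 times shallower in rosiglitazone than in DMSO. With 1 column per treatment no difference has a replicate check, so no p-values are given, and the intervals in brackets cover the counting error of the tags only. A tag in the stretch that both windows share was counted in both.

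The distance between the centres ran from 100 to 208 bp, with a median of 134 bp (quartiles 114 and 163). The windows shared between 1 and 109 bp, with a median of 75 bp. Close sites were far more frequent than offset ones. The nearest C/EBPα centre lay under 100 bp from 9128 PPARγ peaks and 100 to 199 bp from 1833. It lay 300 to 399 bp from 586 PPARγ peaks, 400 to 499 bp from 515 and 500 to 599 bp from 482. The C/EBPα centre was at the higher coordinate in 906 of the 1906 sites, or 47.5% (45.3 to 49.8).

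**Figure D1:**
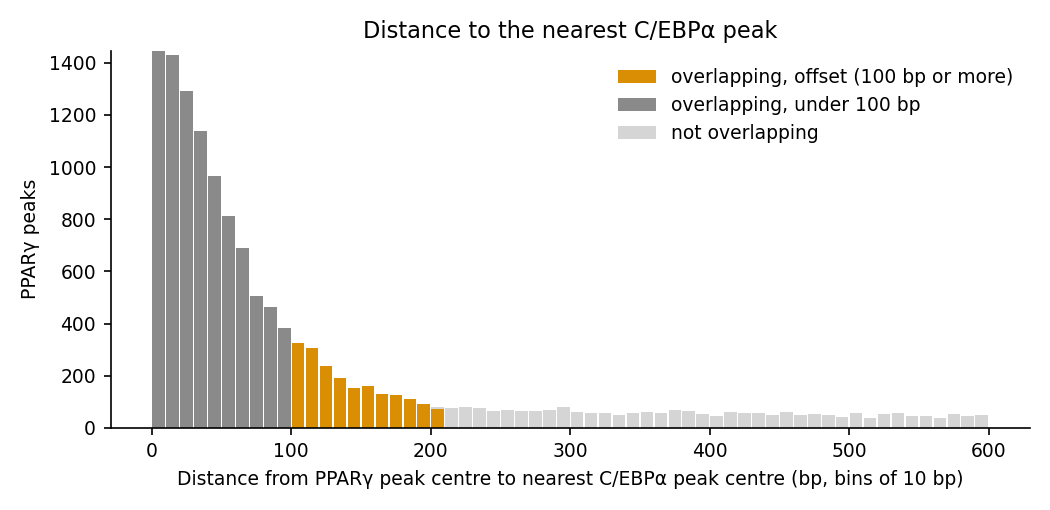
PPARγ peaks by the distance in bp from their centre to the nearest C/EBPα peak centre, in bins of 10 bp, coloured by whether the windows overlap. The 1906 offset sites form the tail of the overlapping peaks between 100 and 208 bp, and the numbers level off beyond it.

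Offset sites were found on all 20 chromosomes that carry overlapping peaks. Their share of the overlapping peaks ran from 14.0% on chromosome 12 to 19.9% on chromosome 17. The share was lower among strong peaks. With PPARγ peaks ranked by the authors' score, 23.5% of overlapping peaks were offset in the lowest decile, 19.8% in the fifth and 12.5% in the highest. Another PPARγ peak lay within 10 kb of 56.8% of the offset sites, against 59.3% of the sites with centres under 100 bp apart and 54.8% of all PPARγ peaks.

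Offset peaks scored lower and were less focused than peaks with close centres. The median PPARγ score was 13.2 at offset sites and 15.4 at sites with centres under 100 bp apart, and the median C/EBPα score was 17.8 and 22.6. The authors' focus ratio, a fraction that is high where the tags of a peak sit near its centre, had a median of 0.763 for offset PPARγ peaks and 0.822 for close ones. For C/EBPα peaks it was 0.796 at offset sites and 0.850 at close ones. Around the threshold, the median PPARγ score was 14.1 at the 327 sites with centres 100 to 109 bp apart and 14.5 at the 384 sites with centres 90 to 99 bp apart. The median focus ratio of the PPARγ peaks was 0.778 just inside and 0.804 just outside. Rosiglitazone over DMSO for CBP in the PPARγ window was 1.25 (1.17 to 1.34) just inside and 1.44 (1.36 to 1.52) just outside. For C/EBPα in its own window it was 0.940 (0.906 to 0.975) and 0.999 (0.965 to 1.03). PPARγ in the C/EBPα window gave 1.71 (1.65 to 1.77) just inside and 1.55 (1.50 to 1.60) just outside, and in its own window 1.62 and 1.53. MED1 in the PPARγ window gave 1.44 (1.36 to 1.53) and 1.58 (1.50 to 1.67), and CBP in the C/EBPα window 1.30 (1.22 to 1.38) and 1.41 (1.34 to 1.49). Rosiglitazone over DMSO for C/EBPα in the PPARγ window differed less, at 0.941 (0.897 to 0.987) just inside and 0.960 (0.920 to 1.00) just outside. The MED1 ratio of rosiglitazone over DMSO in the PPARγ window, divided by that in the C/EBPα window, was 1.04 (0.959 to 1.13) just inside. Just outside it was 1.07 (0.997 to 1.16).

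The tags of the factors were split between the windows, as the choice of sites by peak position largely fixes. Per bp, PPARγ was denser in the PPARγ window and C/EBPα denser in the C/EBPα window at 1805 of the 1906 sites. Both factors were denser in the PPARγ window at 80 sites and in the C/EBPα window at 21. PPARγ had a median of 16.6 units in the PPARγ window in rosiglitazone (quartiles 11.6 and 25.8) and 10.6 in DMSO (7.03 and 17.6). Its medians in the C/EBPα window were 11.6 and 7.47 units. C/EBPα had medians of 8.92 units in the PPARγ window in rosiglitazone and 8.83 in DMSO, and of 17.8 and 19.9 in the C/EBPα window.

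Per 100 bp, PPARγ averaged 13.1 units in the PPARγ window and 7.41 within the C/EBPα window in rosiglitazone, a ratio of 1.77 (1.75 to 1.79). In DMSO it averaged 8.08 and 4.42 units, a ratio of 1.83 (1.80 to 1.86). C/EBPα averaged 6.53 units in the PPARγ window and 11.3 within the C/EBPα window in rosiglitazone, a ratio of 0.577 (0.567 to 0.587). In DMSO it averaged 7.40 and 12.3 units, a ratio of 0.603 (0.590 to 0.616). These ratios of the own factors describe the sites, since the windows were centred on those tags.

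**Figure D2:**
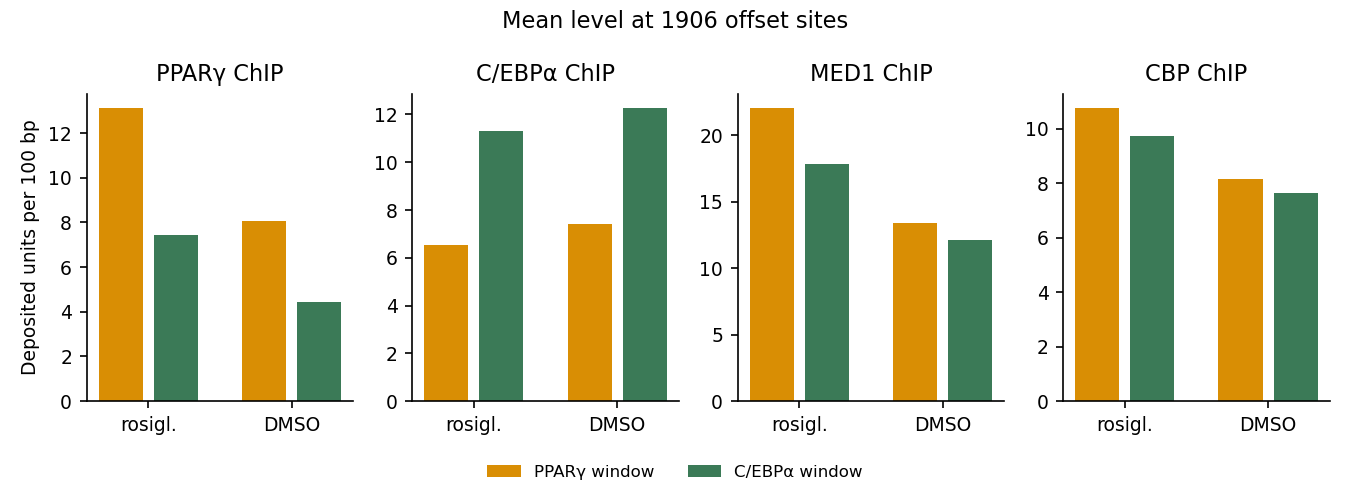
Mean level in deposited units per 100 bp of each antibody over the 1906 offset sites, in rosiglitazone and DMSO, with a bar for the PPARγ window beside a bar for the C/EBPα window. PPARγ and C/EBPα are each higher in their own window, while MED1 and CBP differ little between windows in DMSO and MED1 is 22.0 units in the PPARγ window and 17.8 within the C/EBPα window in rosiglitazone.

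MED1 and CBP, which were not used to place the windows, lay between the factors. In rosiglitazone MED1 averaged 22.0 units per 100 bp in the PPARγ window and 17.8 within the C/EBPα window, a ratio of 1.24 (1.21 to 1.27). In DMSO it averaged 13.4 and 12.1 units, a ratio of 1.11 (1.08 to 1.13). CBP averaged 10.8 and 9.72 units in rosiglitazone, a ratio of 1.11 (1.07 to 1.14), and 8.16 and 7.65 units in DMSO, a ratio of 1.07 (1.04 to 1.09).

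A ratio slightly above 1 was also found where the centres nearly coincide. The PPARγ window is the narrower, and the part of its width in this ratio was not tested. At the 2876 sites with centres under 20 bp apart MED1 gave 1.10 in rosiglitazone and 1.08 in DMSO, and CBP gave 1.09 and 1.08. Set against those values, the MED1 ratio at offset sites was 1.12 times as high in rosiglitazone and 1.03 times in DMSO. CBP was 1.02 times as high in rosiglitazone and 0.984 times in DMSO. Without the width correction, as tags per window, MED1 gave 1.00 in rosiglitazone and 0.895 in DMSO, and CBP 0.895 and 0.863. The higher densities of MED1 and CBP in the PPARγ window were thus absent or turned round, in both treatments, when width was not corrected for.

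On a log scale that runs from the C/EBPα window ratio at 0% to the PPARγ window ratio at 100%, MED1 stood at 68.2% in rosiglitazone and 54.6% in DMSO. CBP stood at 58.1% and 51.4%. The MED1 ratio was above 1 on 18 of 20 chromosomes in rosiglitazone, from 0.941 to 1.51, and on 16 of 20 in DMSO, from 0.895 to 1.40. The CBP ratio was above 1 on 15 of 20 in rosiglitazone, from 0.932 to 1.50, and on 13 of 20 in DMSO, from 0.888 to 1.24.

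At single sites either window could hold the denser coactivator signal. At least 20 MED1 tags were held by 918 offset sites in both windows and treatments together. Of these, 297 (32.4%) had at least 1.5 times more MED1 per bp in the PPARγ window, where 9.16% of the 5297 overlapping sites of any distance did. In 163 (17.8%) MED1 was at least 1.5 times denser in the C/EBPα window, against a background of 6.23%. Of 730 offset sites with at least 20 CBP tags, 220 (30.1%) were that much denser in the PPARγ window, against 8.29% of the 5258 overlapping sites of any distance. CBP was that much denser in the C/EBPα window at 163 (22.3%), against 6.77%. Both directions exceeded the background. Offset windows share fewer bp, and so fewer tags, than the windows of close sites.

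As the centres moved apart, the factors separated and the coactivators stayed between them. From centres 100 to 119 bp apart, through 120 to 149 and 150 to 179 bp, to 180 bp or more, the PPARγ ratio between windows in rosiglitazone was 1.54, 1.72, 1.99 and 2.42. The C/EBPα ratio was 0.712, 0.594, 0.464 and 0.352. MED1 in rosiglitazone was 1.22, 1.20, 1.30 and 1.27, and in DMSO 1.12, 1.11, 1.13 and 1.02. CBP in rosiglitazone was 1.05, 1.09, 1.17 and 1.20, and in DMSO 1.04, 1.08, 1.05 and 1.12. The last MED1 values lean on 1 site on chromosome 19 described below, without which they were 1.38 (1.28 to 1.48) in rosiglitazone and 1.09 (1.02 to 1.16) in DMSO.

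Where the windows barely touched, coactivators were spread over both. At the 178 sites whose windows shared 1 to 20 bp, MED1 was 1.24 times as dense in the PPARγ window in rosiglitazone and 1.07 times in DMSO, or 1.41 and 1.18 without that site. At 162 PPARγ peaks just outside the rule, with a gap of up to 20 bp to the C/EBPα window, the values were 1.70 and 1.31. CBP was 1.13 and 1.11 times as dense in the PPARγ window inside the rule, and 1.31 and 1.32 times just outside it.

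**Figure D3:**
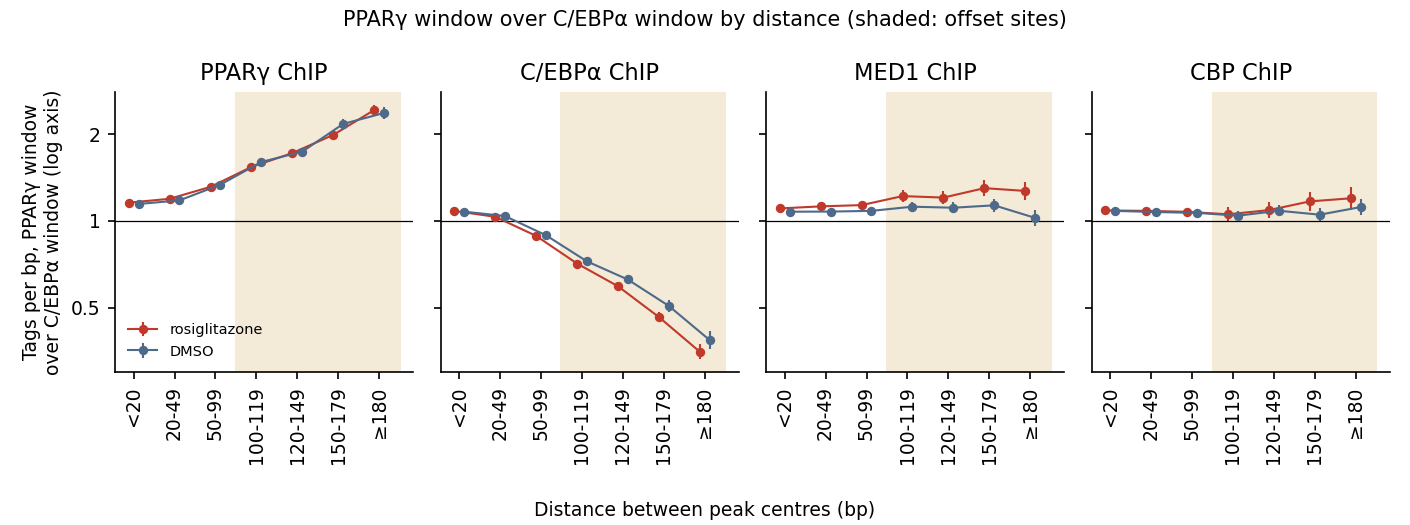
Ratio of tags per bp in the PPARγ window to tags per bp in the C/EBPα window (log axis) for 7 classes of centre distance in bp, in rosiglitazone and DMSO. Bars are exact 95% counting intervals and shading marks offset sites. PPARγ reaches 2.42 and C/EBPα 0.352 at 180 bp or more in rosiglitazone, while MED1 and CBP stay between 1.02 and 1.30 over the offset classes.

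The balance of the coactivators between windows differed with the balance of the factors' own units. Offset sites were placed in 3 equal groups by the ratio of PPARγ units in the PPARγ window to C/EBPα units in the C/EBPα window, summed over treatments. The groups were bounded at ratios of 0.595 and 0.990 and are called PPARγ-leaning, middle and C/EBPα-leaning. Units of different antibodies are not on a common scale, so the names give an order of sites and not which factor was more abundant. At the 635 PPARγ-leaning sites MED1 was 1.40 times as dense in the PPARγ window in rosiglitazone (1.34 to 1.46) and 1.30 times in DMSO (1.25 to 1.35). At the 635 middle sites it was 1.28 and 1.10 times as dense. At the 636 C/EBPα-leaning sites it was 1.05 times in rosiglitazone (1.01 to 1.10) and 0.939 times in DMSO (0.903 to 0.976). Without the chromosome 19 site with most MED1 tags, these became 1.09 (1.04 to 1.14) and 0.961 (0.924 to 0.999).

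CBP was spread over a wider range. In the PPARγ-leaning group CBP was 1.33 times as dense in the PPARγ window in rosiglitazone (1.27 to 1.40) and 1.27 times in DMSO (1.22 to 1.32). In the middle group the values were 1.06 and 1.02. In the C/EBPα-leaning group they were 0.877 (0.823 to 0.934) and 0.893 (0.856 to 0.931). Across the 730 sites with at least 20 CBP tags, the log2 window ratio of CBP had a Spearman rho of 0.29 and a Pearson r of 0.30 with the balance of the factors. For MED1 the values were 0.21 and 0.24 over 918 sites. The window ratios of MED1 and CBP had a rho of 0.49 and an r of 0.53 over the 490 sites with enough tags of both. These are descriptions over sites that share libraries and overlapping windows.

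**Figure D4:**
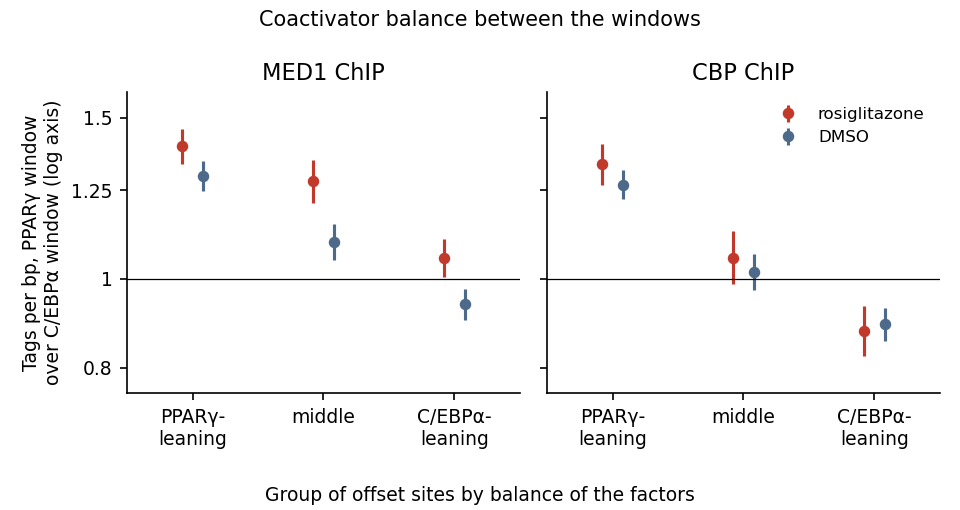
Tags per bp of MED1 and CBP in the PPARγ window over the C/EBPα window (log axis) in 3 groups of offset sites ordered by the balance of PPARγ and C/EBPα, in rosiglitazone and DMSO, with exact 95% counting intervals. Both coactivators are highest in the PPARγ-leaning group, at 1.40 for MED1 and 1.33 for CBP in rosiglitazone, and CBP is below 1 in the C/EBPα-leaning group.

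Offset sites carried less CBP than sites with close centres, and the gap in MED1 was smaller. In the PPARγ window CBP averaged 20.1 units at offset sites and 28.3 at sites with centres under 100 bp apart in rosiglitazone, a ratio of 0.710 (0.691 to 0.729). In DMSO it averaged 15.3 and 20.7 units, a ratio of 0.737 (0.724 to 0.751). MED1 averaged 41.2 and 47.1 units in rosiglitazone, a ratio of 0.875 (0.857 to 0.894), and 25.1 and 29.2 units in DMSO, a ratio of 0.859 (0.843 to 0.875). PPARγ itself was 0.802 times as high at offset sites in rosiglitazone and 0.803 times in DMSO.

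In the PPARγ window CBP was lower at offset sites in each quartile of the PPARγ score. From the lowest quartile to the highest, CBP at offset sites was 0.826, 0.685, 0.705 and 0.830 times that at close sites in rosiglitazone, and 0.823, 0.696, 0.778 and 0.834 times in DMSO. Read in the C/EBPα window, the lowest quartile gave 0.942 (0.873 to 1.02) in rosiglitazone and 0.964 (0.917 to 1.01) in DMSO, where the gap was within counting error. MED1 in the PPARγ window was 1.01, 0.984, 1.13 and 0.896 times in rosiglitazone, and 1.06, 0.913, 0.952 and 0.917 times in DMSO. C/EBPα tags in the PPARγ window were also fewer at offset sites, at 0.388 times in rosiglitazone and 0.441 times in DMSO over all quartiles, as the rule implies. The part of this lower C/EBPα in the CBP gap was not tested.

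After 1 h of rosiglitazone, PPARγ was higher at offset sites by about as much as at close ones. Summed over the sites, PPARγ in the PPARγ window was 1.62 times its DMSO value (1.60 to 1.64), and at sites with centres under 100 bp apart 1.63 times (1.62 to 1.63). In the other window it was 1.68 times (1.65 to 1.71), and at close sites 1.62 times (1.61 to 1.63). Of 1725 offset sites with at least 20 PPARγ tags in the PPARγ window, 601 (34.8%) were at least 2-fold higher and 46 (2.67%) at least 2-fold lower, on a scale of log2 with a pseudocount of 1 unit. Among all 26384 PPARγ peaks with 20 tags 30.3% were that much higher and 4.03% lower. Of 1177 sites in the C/EBPα window, 428 (36.4%) were higher and 36 (3.06%) lower, against 34.0% and 2.93% of C/EBPα peaks. With a pseudocount of 5 units the lower sites numbered 18 and 12. Every chromosome, 20 of 20, had a PPARγ ratio above 1 in both windows. Over all peaks of the PPARγ list the median log2 ratio of PPARγ was 0.50, and scaled to it the sum at offset sites was 1.14 times.

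C/EBPα was lower with rosiglitazone at offset sites. In the PPARγ window it averaged 12.2 units in rosiglitazone and 13.8 in DMSO, a ratio of 0.883 (0.863 to 0.904). In the C/EBPα window it averaged 26.1 and 28.3 units, a ratio of 0.922 (0.908 to 0.937). At sites with centres under 100 bp apart the ratios were 1.00 (0.997 to 1.01) in the PPARγ window and 1.00 (0.999 to 1.01) within the C/EBPα window. At the 162 PPARγ peaks just outside the rule, with a gap of up to 20 bp, they were 0.840 (0.751 to 0.941) and 0.920 (0.869 to 0.974). Lower C/EBPα was thus not particular to offset sites. At the 178 offset sites sharing 1 to 20 bp they were 0.914 (0.825 to 1.01) and 1.00 (0.945 to 1.06). The ratio at offset sites was above 1 on 3 of 20 chromosomes in the PPARγ window and on 1 of 20 in the C/EBPα window.

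The ratio was lower at offset sites than at close ones in every quartile of peak strength. From the lowest quartile of the C/EBPα score to the highest, the ratio in the C/EBPα window was 0.935, 0.938, 0.968 and 0.903 at offset sites and 0.998, 1.04, 1.08 and 0.990 at close sites. In the PPARγ window it was 0.929, 0.937, 0.906 and 0.858 at offset sites and 1.00, 1.06, 1.09 and 0.987 at close sites. Among offset sites the interval reached 1.00 in the third quartile of the C/EBPα window, and it included 1 in the lowest 2 quartiles of the PPARγ window. Of 414 offset sites with at least 20 C/EBPα tags in the PPARγ window, 66 (15.9%) were at least 2-fold lower and 46 (11.1%) higher, where 8.07% of PPARγ peaks were lower and 15.4% higher. Of 1137 in the C/EBPα window, 121 (10.6%) were lower and 113 (9.94%) higher, against 7.38% and 13.8% of C/EBPα peaks. With a pseudocount of 5 units the 121 became 80. The C/EBPα library was 1.73 times deeper in rosiglitazone than in DMSO. The part of that depth in these counts was not tested.

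The difference in C/EBPα was largest in size at C/EBPα-leaning sites, where the ratio was 0.792 in the PPARγ window (0.766 to 0.818) and 0.839 within the C/EBPα window (0.821 to 0.858). At middle sites it was 0.928 and 0.953, and at PPARγ-leaning sites 1.05 and 1.12. C/EBPα tags helped to form these groups, so this order is a description. By distance, the ratio in the PPARγ window was 0.933, 0.887, 0.775 and 0.862 from 100 to 119 bp to 180 bp or more. The C/EBPα window gave 0.950, 0.936, 0.847 and 0.947.

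MED1 was higher with rosiglitazone in both windows, and by more in the PPARγ window. In the PPARγ window it averaged 41.2 units in rosiglitazone and 25.1 in DMSO, a ratio of 1.64 (1.60 to 1.68). In the C/EBPα window it averaged 41.1 and 28.1 units, a ratio of 1.47 (1.43 to 1.50). The first ratio was 1.12 times the second (1.08 to 1.16), where sites with centres under 100 bp apart gave 1.04 (1.02 to 1.05). The 162 PPARγ peaks just outside the rule, with a gap of up to 20 bp, gave 1.30 (1.15 to 1.47). MED1 was 1.63 times its DMSO value over all PPARγ peaks and 1.43 times over all C/EBPα peaks. The contrast between windows was thus not particular to offset sites. At offset sites the ratio of the 2 ratios was above 1 on 17 of 20 chromosomes, from 0.749 to 1.35. By distance it was 1.09 at 100 to 119 bp, 1.08 at 120 to 149 bp, 1.15 at 150 to 179 bp and 1.24 (1.13 to 1.36) at 180 bp or more.

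Few sites had enough MED1 tags to be read singly. Of 408 offset sites with at least 20 MED1 tags in the PPARγ window, 173 (42.4%) were at least 2-fold higher and 24 (5.88%) lower, against 45.1% and 8.14% of PPARγ peaks. Of 448 in the C/EBPα window, 157 (35.0%) were higher and 36 (8.04%) lower, against 37.8% and 9.70% of C/EBPα peaks. These shares were close to those of all peaks. No MED1 tag in either window or treatment was found at 111 of the 1906 sites.

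The extra MED1 in the PPARγ window was seen in each group of sites. The ratio of the 2 ratios was 1.08 (1.02 to 1.14) at PPARγ-leaning sites, 1.16 (1.09 to 1.25) at middle sites and 1.12 (1.06 to 1.19) at C/EBPα-leaning sites. PPARγ itself gave 0.967 (0.947 to 0.988) over all offset sites, and 1.00 from the medians per site. The median per site of MED1, given with the other settings below, was also smaller than its ratio from summed tags. The part of PPARγ in the MED1 contrast was not tested. Across 398 sites with at least 20 tags of both in the PPARγ window, the log2 ratios of MED1 and PPARγ had a Spearman rho of 0.27 and a Pearson r of 0.30. MED1 and C/EBPα had a rho of -0.25 and an r of -0.23 over 136 sites. The same pairs in the C/EBPα window gave a rho of 0.24 over 356 sites and of -0.20 over 332. These too are descriptions over sites of the same libraries.

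CBP was also higher with rosiglitazone in both windows. In the PPARγ window it averaged 20.1 units in rosiglitazone and 15.3 in DMSO, a ratio of 1.32 (1.28 to 1.36). In the C/EBPα window it averaged 22.5 and 17.7 units, a ratio of 1.27 (1.24 to 1.31). The first was 1.04 times the second (0.995 to 1.08), which includes 1, but 1.10 times (1.02 to 1.18) at the 688 sites with centres 150 bp or more apart, which does not. By distance it was 1.01 at 100 to 119 bp, 1.01 at 120 to 149 bp and 1.11 (1.01 to 1.22) at 150 to 179 bp. At 180 bp or more it was 1.07 (0.960 to 1.20), which includes 1. Sites with centres under 100 bp apart had CBP ratios of 1.37 (1.35 to 1.38) and 1.36 (1.34 to 1.37). Of 277 offset sites with at least 20 CBP tags in the PPARγ window, 53 (19.1%) were at least 2-fold higher and 26 (9.39%) lower, against 22.7% and 5.70% of PPARγ peaks. Of 323 in the C/EBPα window, 55 (17.0%) were higher and 22 (6.81%) lower, against 19.1% and 6.62% of C/EBPα peaks. By group, CBP in the PPARγ window was 1.43 times its DMSO value at PPARγ-leaning sites, 1.26 times at middle sites and 1.20 times at C/EBPα-leaning sites.

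**Figure D5:**
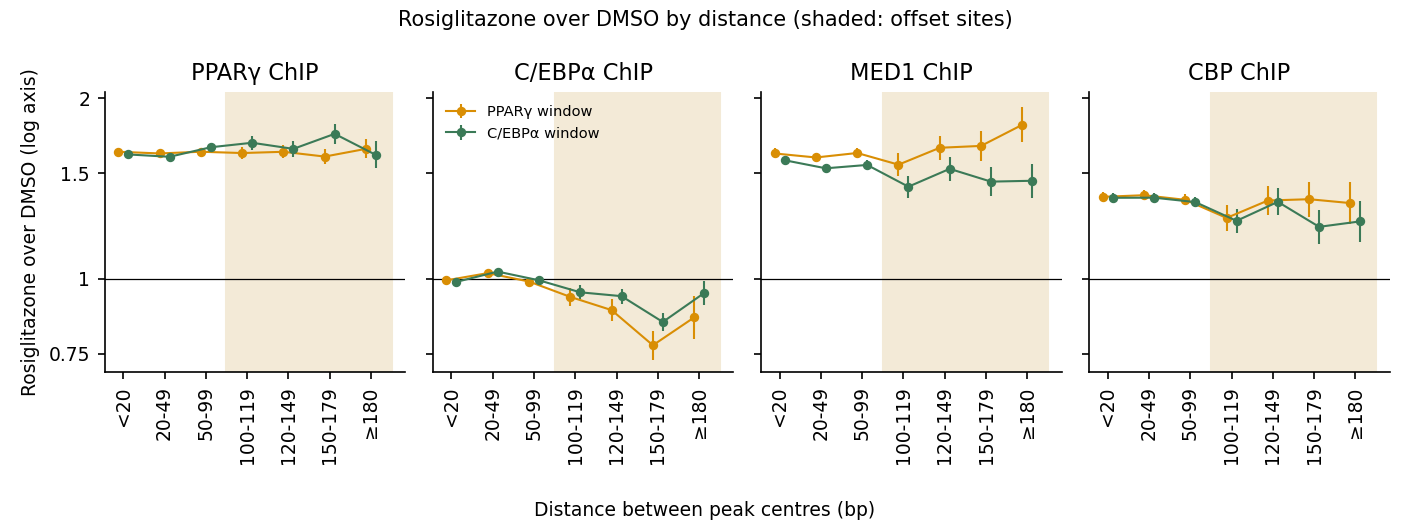
Rosiglitazone over DMSO (log axis) of summed tags, scaled as deposited, for 7 classes of centre distance in bp, in the PPARγ window and the C/EBPα window. Bars are exact 95% counting intervals and shading marks offset sites. C/EBPα is between 0.775 and 0.950 in the offset classes and between 0.988 and 1.03 in the closer ones, and MED1 is 1.81 in the PPARγ window and 1.46 within the C/EBPα window at 180 bp or more.

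Single sites show the spread behind these sums. The offset site with the highest PPARγ score, 318.8, lay on chromosome 19 with its PPARγ window from 61275546 to 61275732 and its C/EBPα window from 61275371 to 61275601 (build mm9), 153 bp apart at the centres. PPARγ there was 391 units in rosiglitazone and 251 in DMSO in the PPARγ window, and 229 and 126 in the C/EBPα window. C/EBPα was 93.0 and 243 units in the PPARγ window and 120 and 283 in the C/EBPα window. CBP was 127 and 84.0 units in the PPARγ window and 66.7 and 59.7 in the C/EBPα window. MED1 was 520 and 335 units in the PPARγ window and 191 and 203 in the C/EBPα window. PPARγ was therefore 1.56 times higher with rosiglitazone (1.34 to 1.81) while C/EBPα was 0.383 times its DMSO value (0.281 to 0.519), both in the PPARγ window. MED1 was 1.55 times higher in the PPARγ window (1.12 to 2.14) and 0.944 times in the C/EBPα window (0.566 to 1.53), where it did not differ beyond counting error.

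A site on chromosome 2, with its PPARγ window from 92215703 to 92215889 and its C/EBPα window from 92215493 to 92215723, was among the 5 highest by both scores, with 162.4 for PPARγ and 214.9 for C/EBPα. The centres were 188 bp apart. PPARγ was 216 units in rosiglitazone and 106 in DMSO in the PPARγ window, and 62.4 and 42.2 in the C/EBPα window. C/EBPα was 21.6 and 39.8 units in the PPARγ window and 166 and 307 in the C/EBPα window. Both factors thus sat mostly in their own windows. MED1 was 138 and 10.5 units in the PPARγ window, from 18 and 3 tags, which is 13.1 times higher with rosiglitazone (3.84 to 69.6) and the highest MED1 ratio of the offset sites with at least 20 MED1 tags in the PPARγ window. MED1 in the C/EBPα window was 191 and 73.4 units, 2.61 times higher (1.40 to 4.90). CBP was 12.1 and 4.42 units in the PPARγ window and 78.8 and 37.6 in the C/EBPα window.

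Among the next highest PPARγ scores, a site on chromosome 17 with its PPARγ window from 24615892 to 24616078 had 362 PPARγ units in rosiglitazone and 164 in DMSO there, a ratio of 2.20 (1.85 to 2.63). C/EBPα there was 3.82 and 13.2 units in the PPARγ window and 11.5 and 15.5 in the C/EBPα window. A site on chromosome 6 from 84090042 to 84090228 had 219 and 91.5 PPARγ units, a ratio of 2.40 (1.91 to 3.04), and 383 and 90.9 MED1 units, a ratio of 4.21 (2.57 to 7.05). A site on chromosome 2 from 172958602 to 172958788 had PPARγ ratios of 1.32 (1.07 to 1.63) in its PPARγ window and 4.52 in its C/EBPα window, 107 units in rosiglitazone and 23.7 in DMSO. At that site PPARγ differed more in the C/EBPα window than at its own peak. MED1 there was also higher in the C/EBPα window, with 429 and 143 units, than in the PPARγ window, with 230 and 83.9.

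The highest C/EBPα score, 229.4, belonged to a site on chromosome 3 with its C/EBPα window from 104245895 to 104246125. C/EBPα was 245 units in rosiglitazone and 203 in DMSO in the C/EBPα window, a ratio of 1.20 (0.934 to 1.56), and 44.6 and 70.7 in the PPARγ window. PPARγ was 18.3 and 7.91 units in the PPARγ window, and CBP was 115 and 61.9 units in the C/EBPα window and 24.3 and 26.5 in the PPARγ window. CBP at this C/EBPα-rich site lay mostly with C/EBPα. A site on chromosome 9 with its C/EBPα window from 62379847 to 62380077 held 155 and 289 C/EBPα units there, a ratio of 0.537 (0.416 to 0.693). Its MED1 was 298 and 105 units in the C/EBPα window and 199 and 90.9 in the PPARγ window.

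The most MED1 tags lay at a site with almost no CBP. On chromosome 19, with a PPARγ window from 40662634 to 40662820 and a C/EBPα window from 40662815 to 40663045, MED1 was 934 units in rosiglitazone and 479 in DMSO in the C/EBPα window, from 122 and 137 tags, and 23.0 and 6.99 in the PPARγ window. CBP held 0 and 3 tags in the C/EBPα window and no tags in the PPARγ window. C/EBPα was 36.9 and 102 units in the C/EBPα window. The origin of this MED1 signal was not tested. The most CBP tags were at a site on chromosome 6 with its PPARγ window from 117603016 to 117603202, where CBP was 91.0 and 183 units in the PPARγ window and 170 and 199 in the C/EBPα window. MED1 there was 23.0 and 150 units in the PPARγ window, a ratio of 0.153 (0.0303 to 0.477), and the CBP ratio in that window was 0.496 (0.266 to 0.866). Both coactivators were lower with rosiglitazone in the PPARγ window. MED1 was also lower in the C/EBPα window, at 30.6 and 119 units, a ratio of 0.258 (0.0664 to 0.722). The CBP ratio in the C/EBPα window, 0.854 (0.538 to 1.32), did not differ from 1 beyond counting error.

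The offset site with the highest PPARγ ratio, on chromosome 2 from 165138280 to 165138466, held 62 tags in rosiglitazone and 1 in DMSO in the PPARγ window, a ratio of 58.6 (10.1 to 2352). Its C/EBPα window held 57 and 6 tags, a ratio of 8.98. Sites were ordered here by log2 with a pseudocount of 1 unit. The sites named for the highest or lowest PPARγ, C/EBPα or MED1 ratio were picked by these ratios. Their intervals cover counting error and do not allow for that choice. Another of the 3 highest, on chromosome 8 from 122961436 to 122961622, held 27 and 0 tags in the PPARγ window. The exact interval of its ratio begins at 6.46. At the low end, a site on chromosome 17 from 69745802 to 69745988 held 3 and 38 tags in the PPARγ window, a ratio of 0.0746 (0.0147 to 0.235). Its C/EBPα window held 2 and 2 PPARγ tags, so nearly all the DMSO tags lay in the PPARγ window.

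The highest C/EBPα ratio belonged to a C/EBPα window on chromosome 3, 145506834 to 145507064, which held 47 tags in rosiglitazone and 1 in DMSO, a ratio of 27.1 (4.63 to 1093). CBP at that window held 0 and 18 tags while MED1 held 14 and 9. A C/EBPα window on chromosome 1, 59464633 to 59464863, had the lowest, with 4 and 16 C/EBPα tags, a ratio of 0.144 (0.0351 to 0.447). A site on chromosome 19 with its C/EBPα window from 6363515 to 6363745 combined 6 and 20 C/EBPα tags, a ratio of 0.173, with a PPARγ ratio of 3.10 (1.80 to 5.58) and a MED1 ratio of 3.18 (1.39 to 7.59) in the PPARγ window.

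At a few sites, chosen for their share of MED1, nearly all MED1 tags lay in a single window. On chromosome 16, with a PPARγ window from 35007501 to 35007687 and centres 194 bp apart, 35 MED1 tags lay in the PPARγ window and 0 within the C/EBPα window. These were 1 tag in rosiglitazone and 34 in DMSO, a ratio of 0.0644 (0.00158 to 0.384), while CBP in the same window was 115 and 50.8 units, a ratio of 2.27 (1.17 to 4.35). The site also had the lowest MED1 ratio, with a pseudocount of 1 unit, among those with at least 20 MED1 tags in the PPARγ window. The interval does not allow for that choice. At this picked site MED1 was lower and CBP higher with rosiglitazone. On chromosome 2, with a PPARγ window from 119798032 to 119798218, 27 MED1 tags lay in the PPARγ window and 1 within the C/EBPα window, and MED1 in the PPARγ window was 138 units in rosiglitazone and 31.5 in DMSO. CBP there held 1 and 7 tags in the PPARγ window, a ratio of 0.392 (0.00870 to 3.05). It held 2 and 2 in the C/EBPα window, a ratio of 2.74 (0.199 to 37.9) once scaled for depth. Both intervals include 1. At the other end, a site on chromosome 8 with its C/EBPα window from 90375783 to 90376013 held 39 MED1 tags in the C/EBPα window and 1 in the PPARγ window. CBP there was 146 and 53.0 units in the C/EBPα window and had no tags in the PPARγ window, although PPARγ in that window was 34.9 and 29.0 units. The centres of that site were 176 bp apart.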

How the data were processed

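The sources were a PPARγ and a C/EBPα peak list of 3T3-L1 adipocytes, each with 8 columns of normalised tag signal deposited by the authors, a peak score and a focus ratio, a fraction deposited per peak. FastQC, Bowtie, HOMER and edgeR and build mm9 are named in the submitters' processing notes, while neither versions nor settings, nor whether samples were pooled for peak calling, are given there. Columns were assigned by antibody and treatment. For MED1 the treated column carries the drug's code BRL in place of its name, and the PPARγ columns name no replicate. Values above 0 were whole multiples of 1 step per column in 100% of cases, within 0.02 steps, so tags were recovered. No count model could be fitted with 1 column per group.

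Each PPARγ peak was paired with its nearest C/EBPα peak by centre. Sums of tags were divided by window width, or scaled as deposited and divided between treatments, with exact Clopper-Pearson intervals at 95%. The ratio of 2 ratios has a log-scale interval that takes the windows as independent, although they share tags. Log2 ratios per site used a pseudocount of 1 and at least 20 tags of the factor. High background was a 1 Mb region with at least 5 unshared peaks whose median tags of the other factor reached 3 times the genome median. It held 3 offset sites. Sites were named by score, coactivator tags, ratios and the MED1 share between windows, from those outside high background, by a fixed rule that gave 44 entries for 39 sites. The report describes those that carry the patterns. Gene positions and sequences of build mm9 were not used here, so the parts planned on motifs and named genes were not run. Scripts were tested on simulated data. The sites and comparisons were chosen with earlier results of these data known. Python 3.11.15, NumPy 2.4.6, pandas 2.3.3 and SciPy 1.17.1 were used.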

Additional observations from a re-analysis of the deposited data

How the results depend on the processing

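Of 254 values recomputed under other settings, 187 moved by less than their counting interval, or for counts by less than 1.5 times, 62 moved by more and 5 changed direction. The 1906 sites became 688 with centres at least 150 bp apart and 794 in the upper part of both lists by score. Counted as tags per window, the ratio of MED1 between windows was 1.00 in rosiglitazone and 0.895 in DMSO, and that of CBP 0.895 and 0.863. Relative to sites with centres under 20 bp apart, a setting chosen after seeing the data, MED1 gave 1.12 and 1.03 and CBP 1.02 and 0.984.

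At 150 bp or more, MED1 between windows was 1.29 and CBP 1.18 in rosiglitazone. There rosiglitazone over DMSO was 0.802 for C/EBPα in the PPARγ window and 0.884 within the C/EBPα window (0.907 between them), 1.72 for MED1 in the PPARγ window (1.19 between them), and 1.23 for CBP in the C/EBPα window (1.10 between them, with an interval of 1.02 to 1.18 that no longer includes 1). At 120 bp or more it was 0.848 for C/EBPα and 1.69 for MED1 in the PPARγ window, and with at least 50 bp shared 1.58 for MED1. In the upper part of the lists MED1 between windows was 1.28 in rosiglitazone, and rosiglitazone over DMSO was 1.67 and 1.74 for PPARγ in the PPARγ and C/EBPα windows and 1.32 for CBP in the C/EBPα window. Without the 1% of sites with most tags, PPARγ gave 1.60 and 1.65, and C/EBPα 0.942 in the C/EBPα window.

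As the median over sites with at least 20 tags, PPARγ gave 1.57 and 1.63 (1.00 between them), C/EBPα 0.946 in the C/EBPα window, MED1 1.88 and 1.62 (1.06 between them) and CBP 1.36 in the PPARγ window. Between windows in DMSO the median gave 1.14 for MED1 and 1.12 for CBP. Over sites with at least 10 tags MED1 gave 1.71 and 1.53. Scaled to the median of each list, a log2 shift of 0.50 for PPARγ, PPARγ gave 1.14 and 1.19 and C/EBPα 0.876 in the C/EBPα window. With a pseudocount of 5 units the sites at least 2-fold lower in PPARγ numbered 18 and 12, and in C/EBPα 80 in the C/EBPα window. The cause of these shifts was not tested. No paired analysis was possible because the columns carry no replicate numbers. MED1 and CBP had medians of 2 to 5 tags per window, so single sites are known only coarsely.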
